A study of Mus musculus with 9 samples.

Results

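Serum response factor (SRF) and 9 genes of the actin cytoskeleton that it is known to drive were followed through bulk RNA sequencing of sorted hippocampal cells from mice. The 10 genes were chosen by symbol for their known link to SRF, with earlier results of these data known, and are Srf, Fhl2, Myl9, Tpm1, Tpm2, Cnn2, Actn1, Flna, Vcl and Zyx. Each matched 1 Ensembl identifier among the 55421 genes in the count table, and all 10 passed the filter on low counts that left 20032 genes for testing. The 9 libraries fall into 3 groups, which the labels give as 3 mice each. The first group, CKO mTBI, is mice with a conditional knockout of Tmsb4x that received a mild traumatic brain injury, given as 1 mild controlled cortical impact. The second, WT mTBI, is wild-type mice with the same injury, and the third, WT sham, is wild-type mice that had the operation without the impact. Per the labels, all of the mice express the red fluorescent protein tdTomato in neurons, and live red cells were sorted from hippocampus dissociated with trypsin. The labels do not name the Cre driver, the deleted part of Tmsb4x, the age or sex of the mice or the time after injury. No knockout mice had a sham operation, so genotype and injury could not be crossed.

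SRF is a transcription factor that binds the CArG box, a short DNA element with an A and T core, and it switches programmes with its partner. Myocardin-related transcription factors (MRTFs) are held by monomeric actin and enter the nucleus when monomers are used up by filament growth. With them SRF drives genes for actin, its crosslinkers and its adhesion sites. With ternary complex factors (TCFs), which answer to MAP kinase signalling, SRF drives immediate-early genes such as Fos and Egr1. In neurons SRF is known for activity-dependent transcription and for neurite growth. Thymosin beta 4, the product of Tmsb4x, binds actin monomers and so belongs to the step upstream of MRTF.

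The promoters are shown because the CArG box is the element through which SRF acts. RefSeq windows of build GRCm38.p6, from 250 bases before to 50 bases after each transcription start, were searched for the CArG box. The pattern is its own reverse complement, so both strands give the same matches, and matches with 1 mismatch were kept as a looser class. All 10 genes had a window, 11 in all because Fhl2 has a pair. An exact box lay in 6 of the 11 windows (54.5%), against 535 of 32851 windows of all genes (1.63%). Allowing 1 mismatch, 8 of the 11 windows (72.7%) held a box, against 21.1% of all windows. The 10 genes were chosen for their known link to SRF, so these contrasts are not independent of that choice. The 5 genes with an exact box were Srf, Fhl2, Myl9, Cnn2 and Vcl, and the looser class added Tpm1 and Flna. These letters were not found in the windows of Tpm2, Actn1 and Zyx. Stretches of 6 promoters that stop short of annotated exons are given here 5′ to 3′ on the strand of the gene, with each box in capitals.
Srf, chr17:46556176-46556274, minus strand: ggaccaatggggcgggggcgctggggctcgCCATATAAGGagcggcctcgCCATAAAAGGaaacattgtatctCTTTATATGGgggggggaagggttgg
Fhl2, chr1:43163962-43164022, minus strand: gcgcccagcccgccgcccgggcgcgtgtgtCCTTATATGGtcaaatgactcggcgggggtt
Myl9, chr2:156775273-156775404, plus strand: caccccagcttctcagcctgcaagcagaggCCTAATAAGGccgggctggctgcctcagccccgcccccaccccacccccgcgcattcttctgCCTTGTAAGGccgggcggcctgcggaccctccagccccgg
Cnn2, chr10:79988514-79988583, plus strand: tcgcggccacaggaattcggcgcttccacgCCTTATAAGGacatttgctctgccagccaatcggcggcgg
Flna, chrX:74246556-74246608, minus strand: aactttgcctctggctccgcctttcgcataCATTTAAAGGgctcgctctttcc
Vcl, chr14:20929148-20929210, plus strand: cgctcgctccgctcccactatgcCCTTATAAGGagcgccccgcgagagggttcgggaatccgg

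Srf carried exact boxes that begin 82 and 62 bases before its start, and a box with 1 mismatch that begins 39 bases before it. Cnn2 and Vcl held the same letters, CCTTATAAGG, beginning 56 bases before the start in Cnn2 and 227 bases before it in Vcl. Myl9 had an exact box 161 bases before its start and a box with 1 mismatch 99 bases before it. The window of the other Fhl2 start held CCAAAAAAGG, 96 bases before that start. Both Tpm1 boxes, CCATATATAG and CCAAAAAAGT, had 1 mismatch, and so did the single box of Flna. A match describes the letters and not binding. Among related lists, an exact box was found in 4 of 14 windows of TCF-type immediate-early genes (28.6%), in 4 of 35 windows of other MRTF-SRF targets (11.4%) and in 0 of 28 windows of genes of actin-to-MRTF signalling.

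**Figure D1:**
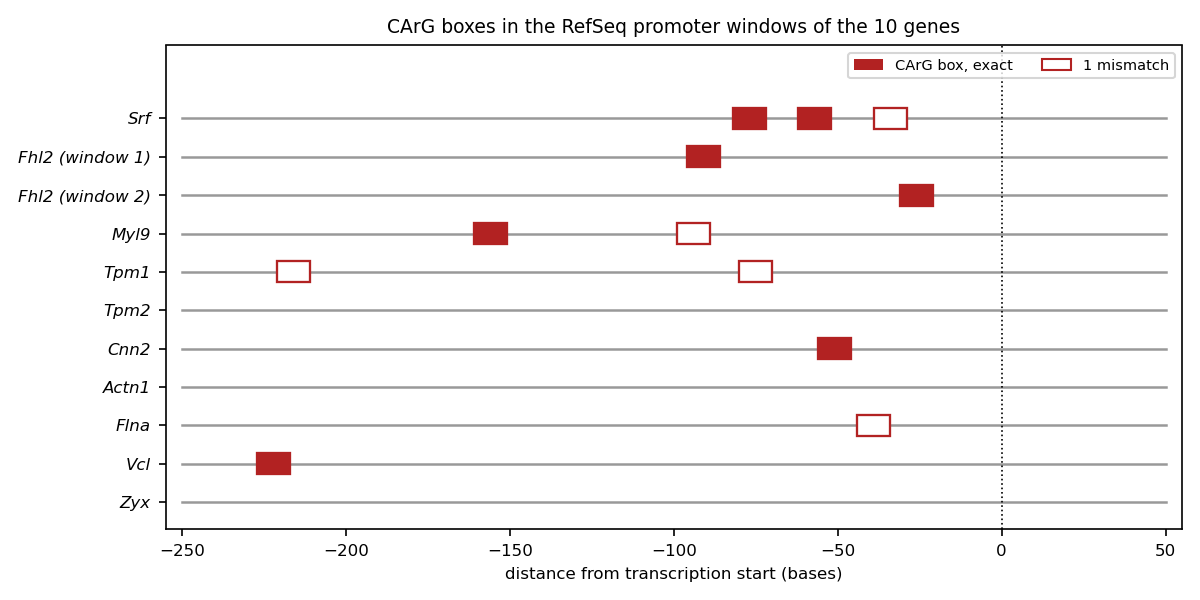
Position of CArG boxes in the 11 RefSeq promoter windows of the 10 genes, as distance from the transcription start in bases. Filled blocks are exact boxes and open blocks have 1 mismatch; 3 blocks sit within 82 bases of the Srf start, and no block falls in the windows of Tpm2, Actn1 and Zyx.

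Total counts ran from 36452443 to 39590872 per library, with both mates of a read pair counted singly. The targeted gene went against 1 group's label. Tmsb4x had 1.83, 2.79 and 2.77 CPM (read counts brought to 1 library size) in CKO mTBI, 900, 553 and 297 CPM in WT mTBI, and 2.73, 1.68 and 2.23 CPM in the group labelled WT sham. The libraries labelled WT sham thus held Tmsb4x at the level of the knockout, and every comparison with them carries that doubt about what they are. Those 3 libraries also stood apart in being alike, with a biological coefficient of variation of 3.27%, against 18.7% in CKO mTBI and 19.6% in WT mTBI. Their pairwise variance was 1.44 to 1.56 times counting noise, taken at 2 counts per fragment, against 11.9 to 22.3 times in CKO mTBI and 10.3 to 38.4 times in WT mTBI. Whether they are 3 separate mice, as labelled, could not be told from these values, and p-values of every comparison with them are too small if they are not. All 9 libraries shared 1 fitted spread, so the p-values and intervals of CKO mTBI minus WT mTBI also depend on them. Markers of the sorted type were plentiful: the 10 neuronal markers summed to 11245 to 11728 CPM in CKO mTBI, 10159 to 11837 CPM in WT mTBI and 11961 to 12237 CPM in the libraries labelled WT sham. Markers of other cells were present at high levels too. Astrocyte markers summed to 4474 to 5125 CPM in CKO mTBI, 4123 to 4845 CPM in WT mTBI and 5145 to 5242 CPM in the libraries labelled WT sham. Oligodendrocyte markers summed to 6333 to 7465 CPM in CKO mTBI, 7344, 5116 and 9318 CPM in WT mTBI, and 6543 to 6580 CPM in the libraries labelled WT sham. The sum of the choroid plexus markers was 235, 5006 and 4096 CPM in CKO mTBI, 4412 to 6197 CPM in WT mTBI and 220 to 221 CPM in the libraries labelled WT sham. WT mTBI replicate 3 had 835 CPM of Xist and 0.0498 CPM of the Y-linked Ddx3y, whereas the other 8 libraries had at most 0.892 CPM of Xist and at least 49.7 CPM of Ddx3y. CKO mTBI replicate 1 stood apart in its choroid plexus markers and WT mTBI replicate 1 in its long genes. The alternatives below leave out these 2 libraries together, for these departures, and also each of the 9 libraries in turn.

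Divided by exonic length, the genes formed 5 tiers over the 9 libraries. Tpm1 was highest at 24.5 ± 1.85 CPM per kilobase of exon (SD, n = 9). Srf at 15.1 ± 0.952, Actn1 at 15.1 ± 1.02, Myl9 at 14.5 ± 2.82, Fhl2 at 14.3 ± 2.66 and Flna at 14 ± 3.29 followed and did not differ from each other beyond their spread. Zyx at 7.09 ± 0.515 and Vcl at 3.63 ± 0.552 came next, each clear of its neighbours' spread. Tpm2 at 2.19 ± 0.634 and Cnn2 at 2.07 ± 0.359 were lowest and overlapped. This order compares levels per length, and everything that follows compares 1 gene between groups in CPM.

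After the knockout, none of the 10 genes passed the test against injured wild type (edgeR quasi-likelihood test, Benjamini-Hochberg adjusted p under 0.05, 0 of 10 called, against 0.015% of all genes). Of the 10, 8 were lower and 2 higher in CKO mTBI than in WT mTBI, with a median log2 change of -0.05, where 49.8% of all genes were lower and their median was 0.0012. At an unadjusted p under 0.05, 2 members were lower, Srf and Cnn2, against 3.35% of all genes. In 3 members, Srf, Tpm1 and Cnn2, all CKO mTBI libraries lay below all WT mTBI libraries, against 4.86% of all genes. DESeq2 and limma voom also called 0 of 10. The count at an unadjusted p under 0.05 changed with the libraries in the fit. It was 4 without WT mTBI replicate 1 and 1 without CKO mTBI replicate 2. Leaving out any 1 of the libraries labelled WT sham, which only share the fitted spread here, also gave 1. It was 0 without CKO mTBI replicate 3 or WT mTBI replicate 2 or 3, and 0 with only the 6 libraries compared. Fewer libraries also leave fewer degrees of freedom, and the cause of these changes was not tested. In bulk RNA, fewer cells of a type and less RNA per cell cannot be told apart.

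After injury in wild type, again 0 of 10 genes were called by edgeR against the libraries labelled WT sham, beside 0.509% of all genes. Of the 10, 9 were higher in WT mTBI, all but Vcl, with a median log2 change of 0.18, where 53% of all genes were higher and their median was 0.02. At an unadjusted p under 0.05, 4 members were higher, Srf, Tpm1, Flna and Zyx, against 7.45% of all genes. In 5 members, Srf, Tpm1, Tpm2, Cnn2 and Zyx, all WT mTBI libraries lay above all libraries labelled WT sham, against 12.4% of all genes. DESeq2 called 0 of 10, and 536 genes in all. With library quality weights, limma voom called 1 of 10, Flna, and 722 of all 20032 genes. The count of 4 members at an unadjusted p under 0.05, in either direction, became 0 with the libraries labelled WT sham summed to 1 sample and 1 without any 1 of them. It became 2 without CKO mTBI replicate 3 or WT mTBI replicate 2 or 3, and 5 without WT mTBI replicate 1 or CKO mTBI replicate 2. This comparison and the preceding one share the WT mTBI libraries, so opposite signs in them are not separate evidence.

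Between CKO mTBI and the libraries labelled WT sham, 0 of 10 genes were called by edgeR, DESeq2 or limma voom, beside 0.0699% of all genes by edgeR. None reached an unadjusted p under 0.05, against 7.2% of all genes, and the groups overlapped in all 10, where 8.75% of all genes lay higher and 8.4% lower without overlap. The median log2 change was 0.08, with 9 higher and only Cnn2 lower, where 52.6% of all genes were higher. The closest to the threshold was Zyx, higher by 0.16 on the log2 scale (95% interval -0.01 to 0.33, edgeR adjusted p = 0.745).

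**Figure D2:**
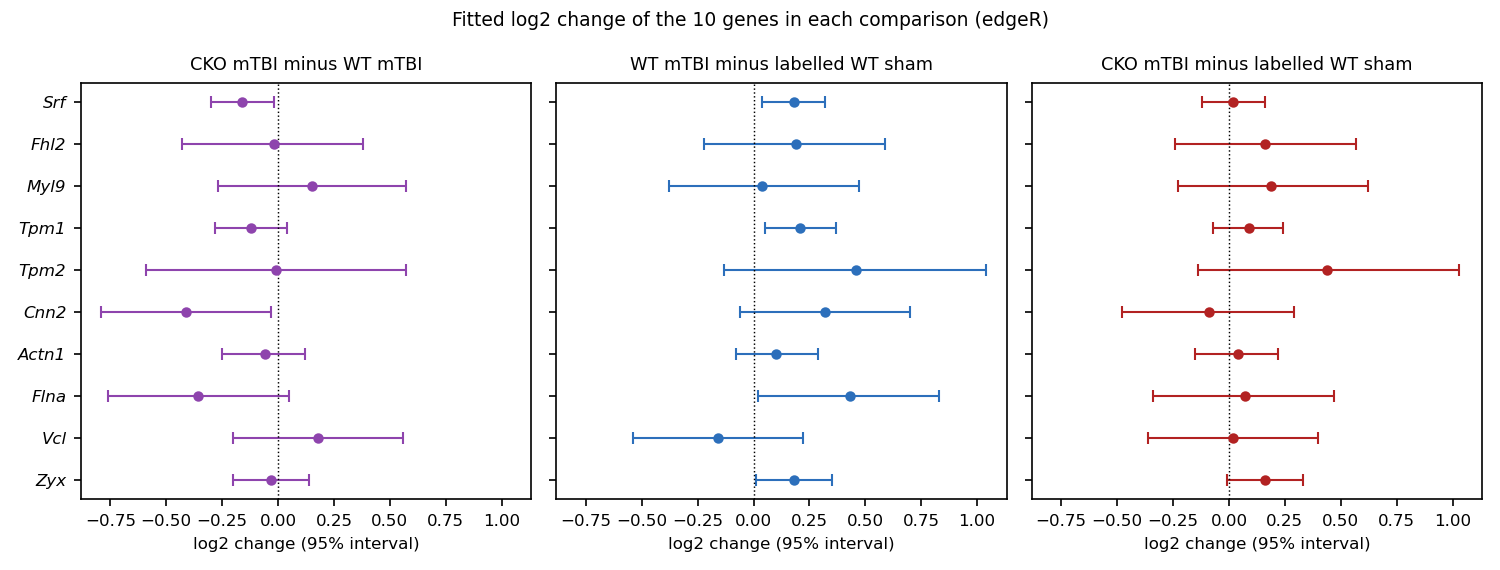
Fitted log2 change (points) with 95% intervals (bars) of the 10 genes in the 3 comparisons, from edgeR. The intervals of Srf and Cnn2 lie below 0 for CKO mTBI minus WT mTBI, those of Srf, Tpm1, Flna and Zyx lie above 0 for WT mTBI minus labelled WT sham, and none of the changes passed adjustment over all genes.

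Srf (ENSMUSG00000015605, chr17:46548329-46556175, minus strand) was the steadiest member. Its levels were 43.0, 41.7 and 42.2 CPM in CKO mTBI, 46.7, 47.2 and 48.1 CPM in WT mTBI, and 41.2, 42.6 and 41.4 CPM in the libraries labelled WT sham. All 3 WT mTBI libraries were above the other 6, which overlapped each other. The group means were 42.3 ± 0.617 CPM in CKO mTBI, 47.3 ± 0.713 CPM in WT mTBI and 41.7 ± 0.75 CPM in the libraries labelled WT sham (SD, n = 3 each). Relative to injured wild type, knockout Srf was at 0.893-fold, a log2 change of -0.16 (SE 0.06, 95% interval -0.30 to -0.02, edgeR adjusted p = 0.732). Relative to the libraries labelled WT sham, Srf in WT mTBI was at 1.14-fold, a log2 change of 0.18 (SE 0.06, 95% interval 0.04 to 0.32, edgeR adjusted p = 0.26). The exact two-sided permutation test of 3 against 3 gave p = 0.1 in both comparisons, the smallest it can give. Between CKO mTBI and the libraries labelled WT sham the log2 change was 0.02 (95% interval -0.12 to 0.16). The range over the 9 libraries was 1.17-fold, the narrowest of the 10 genes, and within groups the coefficient of variation was 1.46% to 1.8%, under the 3.44% that counting alone would give if every fragment gave 2 counts. Over all processing alternatives the log2 change stayed between -0.18 and -0.15 for the knockout and between 0.16 and 0.19 for injury, with lowest adjusted p-values of 0.411 and 0.0714.

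Fhl2 (ENSMUSG00000008136, chr1:43123074-43196984, minus strand), a LIM-only protein that binds SRF, showed no such order. It had 26.7, 20.5 and 36.5 CPM in CKO mTBI, 33.1, 28.8 and 23.0 CPM in WT mTBI, and 25.4, 24.4 and 24.9 CPM in the libraries labelled WT sham. Both the lowest and the highest library were CKO mTBI ones, so the knockout group spanned the other groups. The log2 change was -0.02 for CKO mTBI minus WT mTBI (95% interval -0.43 to 0.38) and 0.19 for WT mTBI minus labelled WT sham (95% interval -0.22 to 0.59). Its correlation with Srf over the 9 libraries was 0.18, a description of libraries that share groups.

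Among the contractile genes, Tpm1 (ENSMUSG00000032366, chr9:67022590-67049406, minus strand) was the most abundant, and like Srf and Cnn2 it was highest in WT mTBI. It encodes a tropomyosin, which lies along actin filaments. Levels were 163, 143 and 167 CPM in CKO mTBI, 173, 171 and 170 CPM in WT mTBI, and 151, 146 and 147 CPM in the libraries labelled WT sham. WT mTBI was above both other groups in every library, while CKO mTBI overlapped the libraries labelled WT sham through its replicate 2. For injury the log2 change was 0.21 (SE 0.07, 95% interval 0.05 to 0.37, edgeR adjusted p = 0.251), the smallest adjusted p of the 10 genes in that comparison. For the knockout it was -0.12 (SE 0.07, 95% interval -0.28 to 0.04, edgeR adjusted p = 0.74), and -0.05 without CKO mTBI replicate 2.

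Cnn2 (ENSMUSG00000004665, chr10:79988584-79996062, plus strand) encodes a calponin, an actin-binding protein. It had 5.31, 3.50 and 4.67 CPM in CKO mTBI, 5.82, 5.63 and 6.45 CPM in WT mTBI, and 4.36, 5.37 and 4.63 CPM in the libraries labelled WT sham. Every WT mTBI library was above every library of both other groups. The log2 change was -0.41 for CKO mTBI minus WT mTBI (SE 0.17, 95% interval -0.79 to -0.03, edgeR adjusted p = 0.732), at 0.753-fold, and it was 0.32 for WT mTBI minus labelled WT sham (SE 0.17, 95% interval -0.06 to 0.70, edgeR adjusted p = 0.451). The knockout value was -0.55 without CKO mTBI replicate 1 and -0.26 without CKO mTBI replicate 2. Counts per library were only 137 to 259, for which counting error alone gives a coefficient of variation of 10.1%.

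The other tropomyosin, Tpm2 (ENSMUSG00000028464, chr4:43514711-43523765, minus strand), was the most variable gene. It had 9.83, 4.07 and 6.99 CPM in CKO mTBI, 8.00, 7.47 and 5.60 CPM in WT mTBI, and 4.73, 5.54 and 5.08 CPM in the libraries labelled WT sham. WT mTBI lay above the libraries labelled WT sham without overlap, by a narrow margin, and CKO mTBI spanned both. Its log2 change was -0.01 for the knockout (95% interval -0.59 to 0.57) and 0.46 for injury (95% interval -0.13 to 1.04, edgeR adjusted p = 0.478). The highest library was 2.42 times the lowest.

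Myl9 (ENSMUSG00000067818, chr2:156775420-156781658, plus strand), a regulatory light chain of non-muscle and smooth muscle myosin, had 24.4, 12.5 and 17.9 CPM in CKO mTBI, 14.9, 16.2 and 18.3 CPM in WT mTBI, and 15.8, 15.5 and 16.5 CPM in the libraries labelled WT sham. The spread in CKO mTBI covered every other library. Its log2 change was 0.15 for the knockout (95% interval -0.27 to 0.57) and 0.04 for injury (95% interval -0.38 to 0.47).

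Flna (ENSMUSG00000031328, chrX:74223461-74249820, minus strand) encodes filamin A, which crosslinks actin filaments. It had 131, 108 and 125 CPM in CKO mTBI, 100, 182 and 185 CPM in WT mTBI, and 117, 116 and 115 CPM in the libraries labelled WT sham. WT mTBI replicates 2 and 3 were above the other libraries of all groups, and WT mTBI replicate 1 was below all of them, so the groups overlapped. With all libraries the log2 change was -0.36 for the knockout (SE 0.18, 95% interval -0.76 to 0.05, edgeR adjusted p = 0.734) and 0.43 for injury (SE 0.18, 95% interval 0.02 to 0.83, edgeR adjusted p = 0.354). Without WT mTBI replicate 1 Flna passed in both, at -0.59 (edgeR adjusted p = 0.0342) and 0.66 (edgeR adjusted p = 0.00655). It passed in both again with WT mTBI replicate 1 and CKO mTBI replicate 1 left out together, at -0.65 (edgeR adjusted p = 0.00728) and 0.66 (edgeR adjusted p = 0.000249). Without WT mTBI replicate 3 it was -0.21 and 0.28. Over all alternatives the lowest adjusted p of Flna for CKO mTBI minus labelled WT sham was 0.718. Flna is X-linked, and the female-pattern WT mTBI replicate 3 had 185 CPM, beside 100 and 182 CPM in the male-pattern replicates 1 and 2. The part of sex in these values was not tested.

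Actn1 (ENSMUSG00000015143, chr12:80167547-80260371, minus strand), the crosslinker alpha-actinin 1, had 78.1, 84.1 and 86.4 CPM in CKO mTBI, 77.2, 95.3 and 87.5 CPM in WT mTBI, and 80.0, 81.8 and 80.6 CPM in the libraries labelled WT sham. All 3 groups overlapped. The log2 change was -0.06 for the knockout (95% interval -0.25 to 0.12) and 0.10 for injury (95% interval -0.08 to 0.29).

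Of the adhesion genes, Zyx (ENSMUSG00000029860, chr6:42349630-42360213, plus strand) encodes zyxin, which gathers at adhesion sites and stressed actin fibres. It had 41.7, 36.4 and 39.9 CPM in CKO mTBI, 38.2, 41.0 and 40.8 CPM in WT mTBI, and 36.4, 35.4 and 34.1 CPM in the libraries labelled WT sham. Injured wild type lay above the libraries labelled WT sham without overlap, and the injured groups overlapped each other. For injury the log2 change was 0.18 (SE 0.08, 95% interval 0.01 to 0.35, edgeR adjusted p = 0.345), and for the knockout it was -0.03 (95% interval -0.20 to 0.14).

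Vcl (ENSMUSG00000021823, chr14:20929398-21033676, plus strand) encodes vinculin, which ties adhesion sites to actin. It had 30.5, 29.5 and 33.2 CPM in CKO mTBI, 18.7, 29.8 and 33.8 CPM in WT mTBI, and 33.0, 30.2 and 28.5 CPM in the libraries labelled WT sham. WT mTBI replicate 1 was the lowest of all 9 libraries, and the other 8 formed 1 band from 28.5 to 33.8 CPM. The log2 change was 0.18 for the knockout (95% interval -0.20 to 0.56) and -0.16 for injury (95% interval -0.54 to 0.22). Vcl shares 25.5% of its exonic bases with Ap3m1 on the opposite strand, and the counting did not use strand, so its level is uncertain. Smaller overlaps with opposite-strand genes touch Actn1, at 6.56% and 1.59%, and Zyx, at 4.38% with Epha1.

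**Figure D3:**
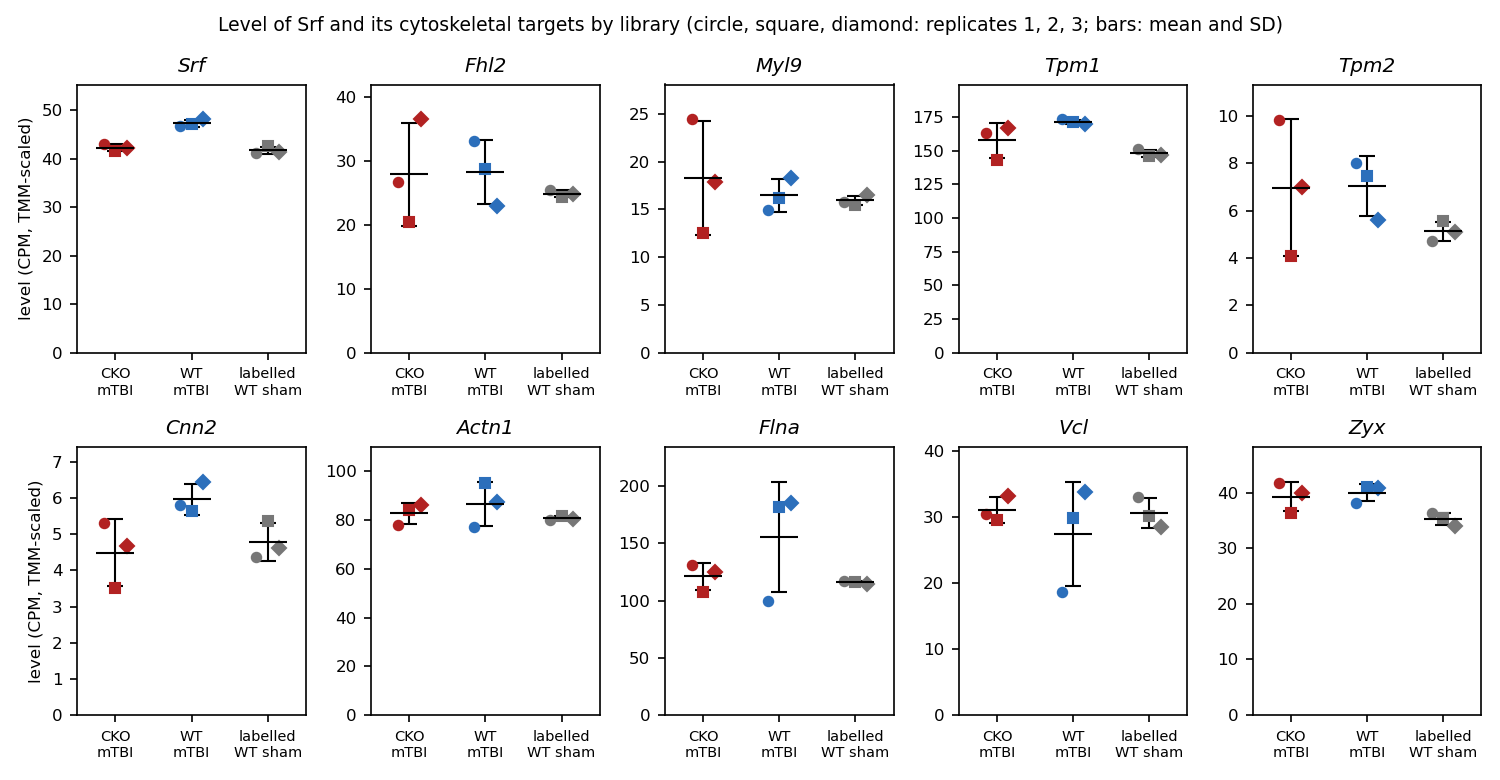
Level of each of the 10 genes in CPM by library, for CKO mTBI, WT mTBI and the libraries labelled WT sham; circles, squares and diamonds are replicates 1, 2 and 3, and bars give the mean and SD. WT mTBI sits above the other groups without overlap for Srf (46.7 to 48.1 CPM), Tpm1 (170 to 173 CPM) and Cnn2 (5.63 to 6.45 CPM), and its replicate 1 is the low point for Flna and Vcl.

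The 10 genes did not move as a block from library to library. Set against the mean of the libraries labelled WT sham, the median log2 difference of the members was 0.14, -0.08 and 0.14 in CKO mTBI replicates 1, 2 and 3, and 0.14, 0.21 and 0.20 in WT mTBI replicates 1, 2 and 3. The members above that mean numbered 8, 3 and 9 in the CKO mTBI libraries and 6, 9 and 9 in the WT mTBI libraries. CKO mTBI replicate 2 was the lowest of its group in 9 of 10 members, against 37.3% of all genes tested. Against the mean of the other 2 knockout libraries it differed on the log2 scale by -1.02 for Tpm2, -0.74 for Myl9, -0.60 for Fhl2 and -0.50 for Cnn2, and by -0.03 for Srf. The widest gaps of this library were thus in Tpm2, Myl9, Fhl2 and Cnn2, and Srf hardly differed. The contractile gene Tpm1 differed by -0.21 and the crosslinker Flna by -0.24.

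**Figure D4:**
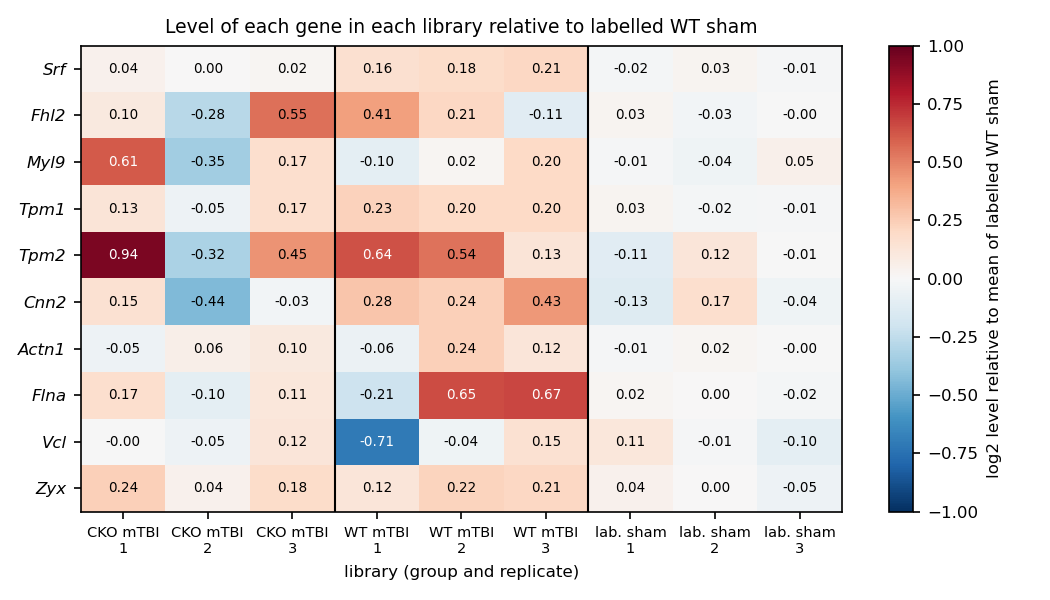
Log2 difference of each gene in each library from the mean of the libraries labelled WT sham. CKO mTBI replicate 2 is low for Cnn2 (-0.44), Myl9 (-0.35), Tpm2 (-0.32) and Fhl2 (-0.28), and WT mTBI replicate 1 is low for Vcl (-0.71) and Flna (-0.21).

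WT mTBI replicate 1 departed in other members. Against the mean of the other 2 injured wild-type libraries, Flna differed by -0.87 and Vcl by -0.76 on the log2 scale, while the other 8 lay between -0.24 and 0.36. Short genes lay on both sides of 0, with Fhl2 at 0.36 and Tpm2 at 0.30 but Myl9, the shortest, at -0.21 and Cnn2 at -0.05. Flna, with 9400 exonic bases, and Vcl, with 8191, are the longest of the 10. In the same library the 2695 genes of at least 8000 exonic bases had a median log2 difference of -0.24 and the 12859 shorter genes a median of 0.09. In the other 8 libraries the median of the long genes was between -0.02 and 0.12. The part of length in the Flna and Vcl values was not tested.

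**Figure D5:**
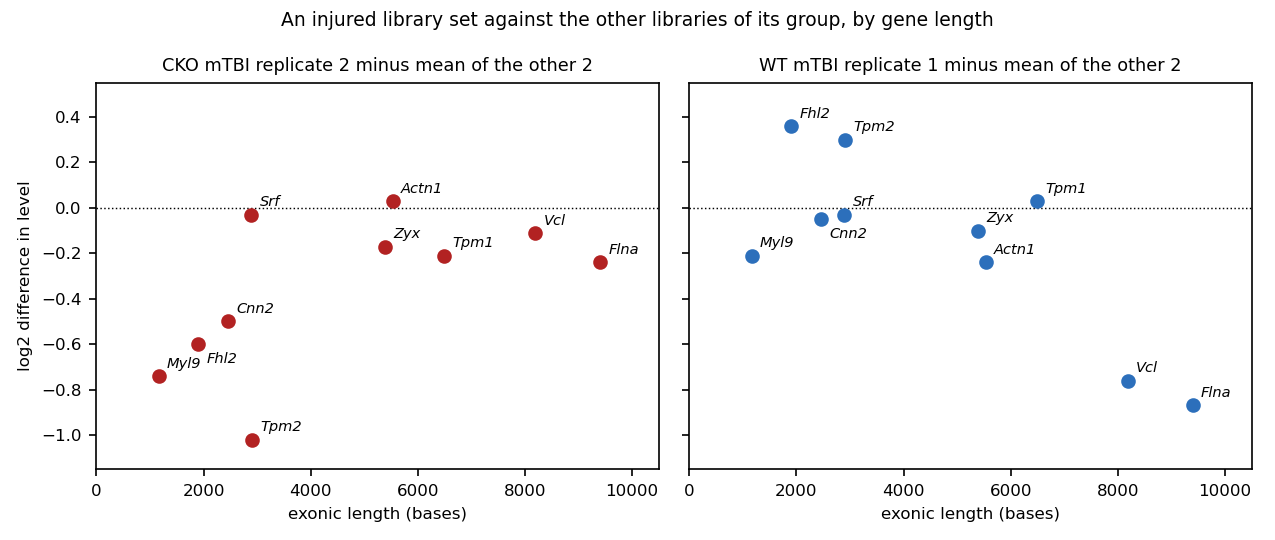
Log2 difference of 1 library from the mean of the other 2 of its group, for the 10 genes against exonic length in bases; CKO mTBI replicate 2 is on the left and WT mTBI replicate 1 on the right. On the left Tpm2 (-1.02) and Myl9 (-0.74) lie lowest, and on the right the 2 longest genes, Flna (-0.87) and Vcl (-0.76), lie lowest.

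Several members are also strong smooth muscle genes, so mural cell markers are given beside them. Acta2, smooth muscle actin, had 25.4, 14 and 17.7 CPM in CKO mTBI, 11.4, 14.8 and 13.7 CPM in WT mTBI, and 14.8, 16.5 and 16.9 CPM in the libraries labelled WT sham. Myh11, smooth muscle myosin, had 24.5, 12.9 and 15.1 CPM in CKO mTBI, 8.39, 12.4 and 14.9 CPM in WT mTBI, and 14.5, 13.9 and 14.2 CPM in the libraries labelled WT sham. Both were highest in CKO mTBI replicate 1, as Myl9 and Tpm2 were, and lowest of the knockout group in its replicate 2. The list did not share that order as a whole. In CKO mTBI replicate 2, 7 of 12 mural markers were lowest of the group (37.3% of all genes tested). In the same library 4, namely Abcc9, Cspg4, Higd1b and Kcnj8, were highest (37% of all genes tested). In WT mTBI replicate 1, 9 of 12 mural markers were lowest of the group (39% of all genes tested), whereas Tpm2 was highest there. All 12 mural markers had counts in every library, with a summed level of 266 to 319 CPM in CKO mTBI, 222 to 289 CPM in WT mTBI and 290 to 293 CPM in the libraries labelled WT sham. Of the 11 mural markers tested, 11 were higher in CKO mTBI than in WT mTBI, as were 10066 of all 20032 genes. Only 2 were higher in WT mTBI than in the libraries labelled WT sham, as were 53% of all genes. With edgeR, DESeq2 or limma voom, 0 were called in either comparison. At an unadjusted p under 0.05, 3 were higher for the knockout (3.25% of all genes). For injury 0 were higher and 0 lower at that threshold (7.45% and 5.79% of all genes). Tagln, a defining smooth muscle gene, was near 0, at 0.0765 to 0.312 CPM, unlike Acta2 and Myh11 in the same libraries. Exons shared with other genes were looked for in the members only. Whether the count of Tagln gives its true level was not tested, so it is no measure of smooth muscle here. The choroid plexus markers were high in 5 of 6 injured libraries. The part of mural and choroid plexus markers in the member values was not tested.

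The partners of SRF were measured as a list of 7 genes. Scai (ENSMUSG00000035236, chr2:39066214-39190734, minus strand), which suppresses MRTF, was the only one that edgeR called, and only for injury, beside 0.509% of all genes. It had 61.8, 64.7 and 68.0 CPM in CKO mTBI, 59.8, 70.4 and 62.4 CPM in WT mTBI, and 86.0, 88.2 and 85.3 CPM in the libraries labelled WT sham. Both injured groups lay below the libraries labelled WT sham and overlapped each other. Scai fell in WT mTBI by 0.43 on the log2 scale (SE 0.08, edgeR adjusted p = 0.0448). In CKO mTBI the log2 change against the same libraries was -0.42 (edgeR adjusted p = 0.132). DESeq2 and limma voom called that change in CKO mTBI, among 223 and 279 genes in all. The call for injury held in 11 of 20 alternatives. Where every group kept more than 1 library, adjusted p ran from 0.000302 to 0.262. The call was lost without any 1 of the libraries labelled WT sham, without WT mTBI replicate 3 and without CKO mTBI replicate 2 or 3. It was also lost with a stricter filter on low counts (edgeR adjusted p = 0.0518) and with replicate number as a block (edgeR adjusted p = 0.0516). With the libraries labelled WT sham summed to 1 sample the log2 change was -0.43. Between CKO mTBI and WT mTBI its log2 change was 0.01 (edgeR adjusted p = 0.965).

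The coactivators themselves were not called in any of the 3 comparisons. Mrtfa had 88.2, 101 and 101 CPM in CKO mTBI, 78.8, 96.6 and 89.2 CPM in WT mTBI, and 87.5, 91.8 and 86.5 CPM in the libraries labelled WT sham. Mrtfb had 274, 294 and 318 CPM in CKO mTBI, 202, 304 and 290 CPM in WT mTBI, and 310, 317 and 303 CPM in the libraries labelled WT sham. Both were lowest in WT mTBI replicate 1. Myocd, the cardiac and smooth muscle member of the family, was near 0, at 0.102 to 0.642 CPM. Of the TCFs, Elk1 had a log2 change of -0.21 for injury (edgeR adjusted p = 0.454) and Elk3 one of 0.29 for the knockout (edgeR adjusted p = 0.739).

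Other known MRTF-SRF targets were taken from a list of 34, of which 33 were tested. For the knockout edgeR called 0, with a median log2 change of 0.03. At an unadjusted p under 0.05, 3 were higher and 6 lower (3.25% and 3.35% of all genes). DESeq2 called Actb and Actg1 lower, among 18 genes in all, and limma voom called 0. For injury edgeR called 0, with 8 higher and 0 lower at an unadjusted p under 0.05 (7.45% and 5.79% of all genes) and a median of 0.09. DESeq2 called Actb and Actg1 higher for injury, among 536 genes in all. Of the 722 genes that limma voom called, both of these were part, with Tgfb1i1 and Wdr1. Like Srf, the cytoplasmic actins were highest in WT mTBI. Within that group they fell from replicate 1 to replicate 3, whereas Srf rose. Actb had 947, 903 and 944 CPM in CKO mTBI, 1466, 1219 and 1085 CPM in WT mTBI, and 939, 947 and 933 CPM in the libraries labelled WT sham. Every WT mTBI library was above every library of both other groups. The log2 change of Actb was -0.43 for the knockout (SE 0.10, edgeR adjusted p = 0.732, DESeq2 adjusted p = 0.0492) and 0.42 for injury (edgeR adjusted p = 0.0894). With 1 library left out at a time, its knockout value ran from -0.52 to -0.31. Actg1 had 426, 348 and 412 CPM in CKO mTBI, 588, 551 and 490 CPM in WT mTBI, and 383, 403 and 392 CPM in the libraries labelled WT sham. Again WT mTBI was above both other groups, with a log2 change of -0.46 for the knockout (edgeR adjusted p = 0.732) and 0.47 for injury (SE 0.09, edgeR adjusted p = 0.0579). Tgfb1i1, an adhesion protein also known as Hic-5, had a log2 change of 0.45 for injury (edgeR adjusted p = 0.185), and Wdr1, a cofactor of cofilin, one of 0.24 (edgeR adjusted p = 0.202).

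The immediate-early genes, the TCF side of SRF, held 14 genes, all tested. For the knockout 14 of 14 had lower values, with a median log2 change of -0.36 and 6 at an unadjusted p under 0.05 (49.8% and 3.35% of all genes), and 0 were called by edgeR, DESeq2 or limma voom. For injury 12 of 14 had higher values (53% of all genes), with a median log2 change of 0.49. At an unadjusted p under 0.05, 7 were higher (7.45% of all genes). Here edgeR and limma voom called 0, whereas DESeq2 called Arc, Egr2 and Fos, among 536 genes in all. Arc, which acts at synapses, had 60.1, 69.9 and 79.3 CPM in CKO mTBI, 147, 68.5 and 102 CPM in WT mTBI, and 60.8, 59.4 and 61.7 CPM in the libraries labelled WT sham. Fos had 6.75, 3.27 and 5.32 CPM in CKO mTBI, 15.3, 4.41 and 9.71 CPM in WT mTBI, and 4.08, 4.02 and 3.77 CPM in the libraries labelled WT sham. For both genes WT mTBI replicates 1 and 3 were above all other libraries and replicate 2 fell inside the range of CKO mTBI. The log2 change for injury was 0.80 for Arc (edgeR adjusted p = 0.135) and 1.31 for Fos (edgeR adjusted p = 0.175), and without WT mTBI replicate 1 it was 0.49 for Arc and 0.84 for Fos. WT mTBI replicate 3 was high for Arc, Fos and Flna alike, while replicate 1 was the highest library for Arc and Fos and the lowest for Flna.

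Upstream of MRTF, 22 of 23 genes of actin-to-MRTF signalling were tested. Tmsb4x, the targeted gene, was the only one called by edgeR, with a log2 change of -7.88 for CKO mTBI minus WT mTBI (SE 0.43, edgeR adjusted p = 2.07e-05) and of 8.04 for WT mTBI minus labelled WT sham (edgeR adjusted p = 1.89e-05). The list, Tmsb4x included, had a median log2 change of -0.08 for the knockout and 0.08 for injury. For the knockout 17 of 22 were lower (49.8% of all genes), and for injury 16 of 22 were higher (53% of all genes). At an unadjusted p under 0.05, 0 were higher and 3 lower for the knockout (3.25% and 3.35% of all genes). For injury 3 were higher and 1 lower at that threshold (7.45% and 5.79% of all genes). Dstn, which severs actin filaments, had a log2 change of 0.38 for injury (edgeR adjusted p = 0.141). DESeq2 and limma voom called Dstn there, among 536 and 722 genes in all. The related monomer binder Tmsb10 had 0.35 for injury (edgeR adjusted p = 0.268), and Cfl1, cofilin, -0.32 for the knockout (edgeR adjusted p = 0.732). Without WT mTBI replicate 1 these log2 changes were 0.25 for Dstn and -0.11 for Cfl1. Among adhesion partners, 21 of 22 genes were tested and 0 were called by edgeR in either comparison. At an unadjusted p under 0.05, 1 was higher and 0 lower for the knockout (3.25% and 3.35% of all genes), and 5 were higher and 1 lower for injury (7.45% and 5.79% of all genes). DESeq2 also called 0 in both. For injury limma voom called Sorbs3, among 722 genes in all, and the log2 change of Sorbs3 by edgeR was 0.38 (edgeR adjusted p = 0.16).

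The genes whose log2 CPM followed Srf most closely over the 9 libraries, among 15605 genes with a mean of at least 1 CPM, were Slc7a10 (Pearson r = 0.962), Lpcat1 (0.958) and Tmsb4x (0.941). Tmsb4x is the targeted gene, and like Srf it was high in WT mTBI alone. Within WT mTBI their orders were opposite, with Tmsb4x at 900, 553 and 297 CPM and Srf at 46.7, 47.2 and 48.1 CPM. Slc7a10 had 26.7, 24.3 and 25.5 CPM in CKO mTBI, 29.6, 29.9 and 32.9 CPM in WT mTBI, and 23.4, 23.7 and 24.4 CPM in the libraries labelled WT sham. Among the members, r with Srf was highest for Cnn2 (0.80) and Tpm1 (0.79) and lowest for Vcl (-0.30). The mean of the 10 members was followed most closely by Samd11 (0.964), Kank4 (0.962) and Ttc34 (0.960). These values describe 9 libraries that share groups, and carry no p.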

How the data were processed

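The authors deposited 1 table of unnormalized read counts, by Ensembl gene. Per the file headers, the authors made them with featureCounts 2.0.6 over Ensembl release 98 exons (GRCm38), with no option for counting pairs, strand or multi-mapping reads. HISAT2 is named in the submitters' processing notes, with Trim Galore, SAMtools, FastQC and MultiQC, and no versions are given. Both mates were therefore counted singly, so counts overstate independent fragments. Names, positions and exon lengths came from GENCODE M21, which matched 55240 of 55421 genes. Column names gave each sample.

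Genes were filtered with filterByExpr and scaled by TMM, and all 9 libraries were fitted together in edgeR 4.0.16 (R 4.3.3, quasi-likelihood F test, two-sided), with 6 residual degrees of freedom and a biological coefficient of variation, common to all genes, of 15.3%. P-values were adjusted over all 20032 genes. Alternatives used DESeq2 1.42.0 and limma 3.58.1, other scalings and filters, and left-out libraries. The labels give 3 mice per group; p-values measure the spread between these libraries, which may be technical.

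The members and lists were chosen with earlier results of these data known. Named were the members, up to 4 genes of smallest p from each list, the genes closest to Srf or to the member mean, and markers. Mrtfa, Mrtfb, Myocd and Tagln were named after their values were seen.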

Additional observations from a re-analysis of the deposited data

How the results depend on the processing

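Of the 30 member changes, 18 kept their sign in every alternative run, 19 for CKO mTBI minus WT mTBI and 20 for each other comparison, and 26 of 590 recomputed values changed sign, in members whose intervals spanned 0. The members called stayed at 0 for CKO mTBI minus labelled WT sham. For the knockout and for injury they ran from 0 to 1 when single libraries were left out, and the 1 was Flna without WT mTBI replicate 1. Leaving out WT mTBI replicate 1 and CKO mTBI replicate 1 together gave 1 in both, and limma voom gave 1 for injury. Sign changes for CKO mTBI minus WT mTBI were 0.19 for Fhl2 and 0.09 for Tpm2 with limma voom, and 0.14 for Fhl2, -0.18 for Myl9 and -0.02 for Vcl with both libraries left out. With both out, Vcl was 0.06 for injury and Myl9 was -0.07 for CKO mTBI minus labelled WT sham. With 1 library left out at a time, knockout changes ran from -0.26 to 0.16 for Fhl2, -0.12 to 0.36 for Myl9, -0.35 to 0.26 for Tpm2, -0.14 to 0.02 for Actn1, -0.03 to 0.36 for Vcl and -0.07 to 0.03 for Zyx. Injury changes ran from -0.05 to 0.11 for Myl9 and -0.34 to 0.06 for Vcl. For CKO mTBI minus labelled WT sham they ran from -0.08 to 0.34 for Fhl2, -0.07 to 0.40 for Myl9, -0.23 to 0.06 for Cnn2 and -0.03 to 0.08 for Vcl. Apart from fewer samples, the cause was not tested.

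With replicate number as a block, 0 members were called in each comparison, and 0, 2 and 0 reached an unadjusted p under 0.05. Scai for injury had an adjusted p of 0.0516. Deviations of same-numbered libraries correlated by -0.0887 to 0.0733, so the numbers were not taken as pairs.

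All genes called in the main fit numbered 3 for the knockout, 102 for injury and 14 for CKO mTBI minus labelled WT sham. Over the alternatives they ran from 1 to 68, 1 to 722 and 0 to 387. Injury gave 1 with the libraries labelled WT sham summed, 5, 5 and 9 without each of them, 536 with DESeq2, 722 with limma voom and 676 without a count filter. Tpm2 and Cnn2 had the fewest counts, which limits their precision most.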
